A study of Oryza sativa with 36 samples.

Results

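The class III homeodomain-leucine zipper (HD-ZIP III) genes of rice are OSHB1 (LOC_Os03g01890, chromosome 3), OSHB2 (LOC_Os10g33960, chromosome 10), OSHB3 (LOC_Os12g41860, chromosome 12), OSHB4 (LOC_Os03g43930, chromosome 3) and OSHB5 (LOC_Os01g10320, chromosome 1). They were chosen by their identifiers and not by their values, though with earlier results of these data known. All 5 have a row among the 55801 loci of the count table. Of the 24225 loci with any count, 6943 were abundant enough to be tested, and they include 4 of the 5 genes. OSHB5 fell below that filter.

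HD-ZIP III proteins are plant transcription factors with a homeodomain, a leucine zipper and a lipid-binding START domain. In Arabidopsis, family members are needed to form the shoot meristem and axillary meristems, they specify the upper (adaxial) side of leaves, and they pattern vascular tissue. Their transcripts carry a site for the microRNAs miR165 and miR166, which keep the transcripts out of the lower side of the leaf. In rice, forms of OSHB1 and OSHB3 that escape miR166 disturb meristems and leaf polarity, and a miR166-resistant allele of OSHB1 is known as lateral floret1 for the extra florets it produces.

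Gene expression was measured with CEL-Seq2, which counts molecules near the 3′ end of each transcript through molecular identifiers, in 35 rice libraries. The cultivars were Takanari, a high-yielding indica rice, and NIL-MP3, by its name a near-isogenic line for MP3. MP3 is known, though not from the labels, as a locus on chromosome 3 that affects panicle number, and the labels do not state the recipient parent. Each cultivar was sampled as AM1, AM2, AM3, AM4, AM5 and SAM, all under a tissue label of axillary meristems. The labels do not spell out AM1 to AM5 or SAM, and no agent or treatment separates the groups. All plants grew in short days, at 27 °C during the 10 h light phase and at 25 °C during the 14 h dark phase. There were 3 libraries in each of 11 groups and 2 in Takanari SAM, whose library 18 the submitters left out because its reads did not align.

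Total counts per library ran from 77362 to 224706. AM5 had the lowest mean total, 110700 ± 29300 (SD, n = 6), and SAM the highest, 163500 ± 42360 (SD, n = 5). The meristem label could not be checked against marker genes, because the files pair no identifier with a gene name. Levels below are CPM, a counts-per-million scale over the tested loci after TMM scaling. They are not divided by transcript length, since each molecule is counted once near its 3′ end. How reads shared between similar loci were counted is not given in the sources used here, so the split of counts among these related genes is uncertain.

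OSHB4 was the most abundant of the genes, at 280.1 ± 92.5 CPM (SD, n = 35 libraries). OSHB3 followed at 201.5 ± 61.6 CPM, OSHB1 at 122.2 ± 35.2 CPM and OSHB2 at 94.1 ± 26.4 CPM. These levels put OSHB4 at percentile 91.5 of the tested loci by mean CPM, OSHB3 at 86.8, OSHB1 at 73.5 and OSHB2 at 62.3. Behind them stood means of 34.5, 25.0, 14.8 and 11.7 counts per library in the same order.

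The order held only in part within single libraries. OSHB4 had more counts than OSHB2 in 35 of 35 libraries and more than OSHB1 in 34 of 35. OSHB4 exceeded OSHB3 in 25 of 35 libraries, equalled it in 1 and lay below it in the other 9. OSHB3 exceeded OSHB1 in 30 of 35 libraries, and OSHB1 exceeded OSHB2 in 24 of 35. All 5 genes stood in the strict order OSHB4, OSHB3, OSHB1, OSHB2 and OSHB5 in 15 of 35 libraries.

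OSHB5 was hardly counted, which need not mean that its transcript was nearly absent, since the annotation used is not given. It had 11 counts in all 35 libraries together, of 4971598 counts of all loci, which is 2.21 on a counts-per-million scale over all loci. It was at 0 in 25 libraries, at 1 count in 9 and at 2 counts in Takanari AM1 replicate 17. The 11 counts were spread over both cultivars, 5 in NIL-MP3 and 6 in Takanari. AM1 and AM2 held 3 counts each, AM3 and SAM 2 each, and AM4 1. AM5 had 0 of 664497 counts, which allows up to 4.51 on that scale, a limit above the level over all libraries. A difference of OSHB5 between tissues was not detectable at this depth. Such limits, and the intervals below, cover counting error only.

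**Figure D1:**
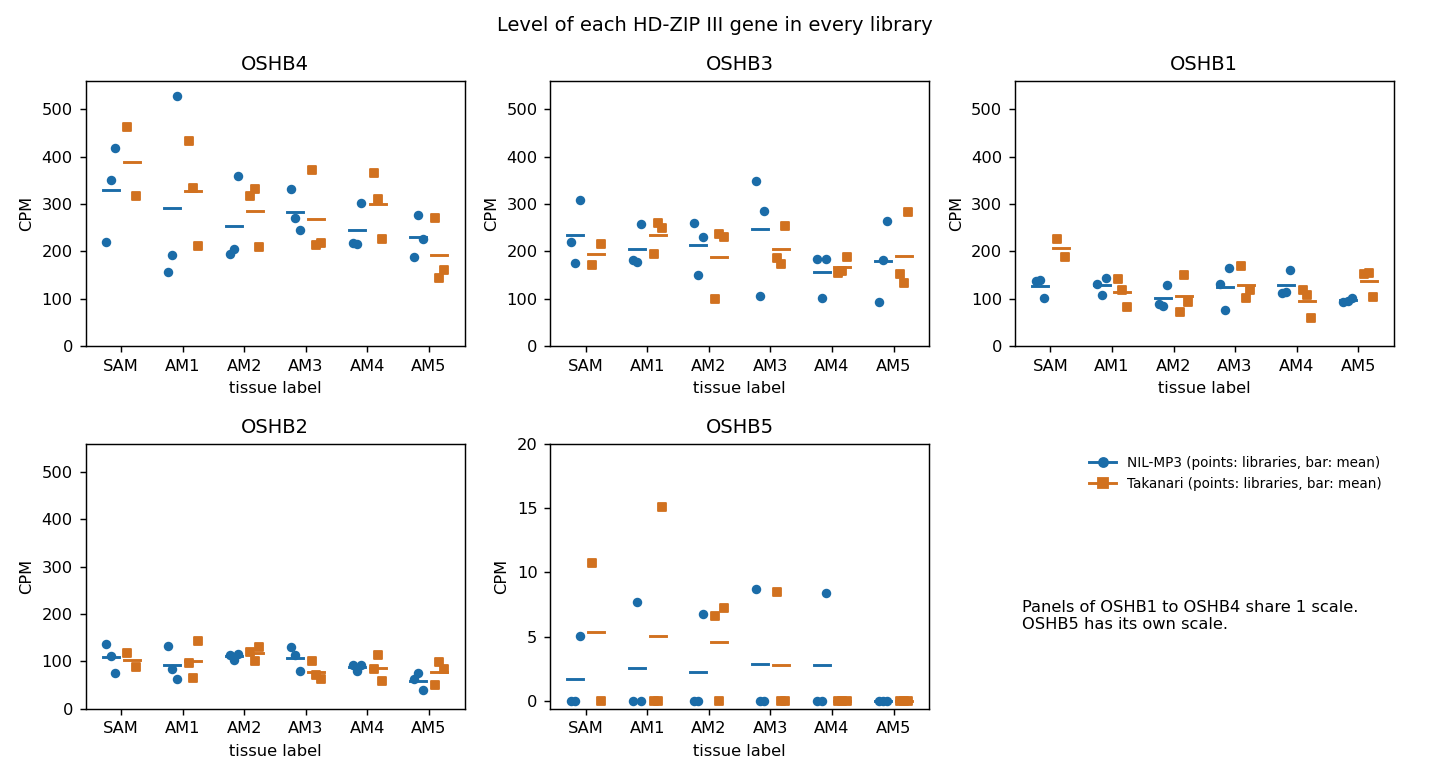
CPM of each gene (vertical axis) in each library by tissue label (horizontal axis), NIL-MP3 as circles and Takanari as squares, with a bar at the mean of each group of 3 libraries (2 for Takanari SAM). OSHB4 spans 144.1 to 527.4 CPM and OSHB2 38.9 to 143.3 CPM, and OSHB5 is at 0 in 25 of 35 libraries.

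Over the tissues, the summed level of the 5 genes was highest in SAM and lowest in AM5. In SAM the sum was 715.5, 780.3 and 909.7 CPM in NIL-MP3 replicates 6, 12 and 18, and 990.5 and 807.3 CPM in Takanari replicates 6 and 12. In AM5 the lowest library was at 439.3 CPM, the median at 626.7 CPM and the highest at 632.9 CPM (n = 6). Every AM5 library thus lay below every SAM library, also when counts were scaled by the library total alone. Among the tested loci taken singly, 3.08% had all AM5 libraries below all SAM libraries, and none of the 4 tested genes did so alone (0 of 4). The share among sums of several loci was not counted, so this percentage does not say how rare the separation of the sum is.

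From high to low, the mean sum was 840.7 ± 109 CPM in SAM (SD, n = 5), 752.3 ± 161 CPM in AM1, 723.1 ± 157 CPM in AM3, 691.9 ± 117 CPM in AM2, 635.8 ± 100 CPM in AM4 and 581.4 ± 79.7 CPM in AM5 (SD, n = 6 for AM groups). The AM5 mean was 0.692 of the SAM mean. No step between neighbours in this order exceeded the larger SD of the pair. The sum is given as a description without a test, because it adds up genes chosen together. AM5 also had the lowest library totals and SAM the highest, and the part of library depth in the difference was not tested. In such bulk samples, fewer cells that express a gene and less RNA per cell cannot be told apart.

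**Figure D2:**
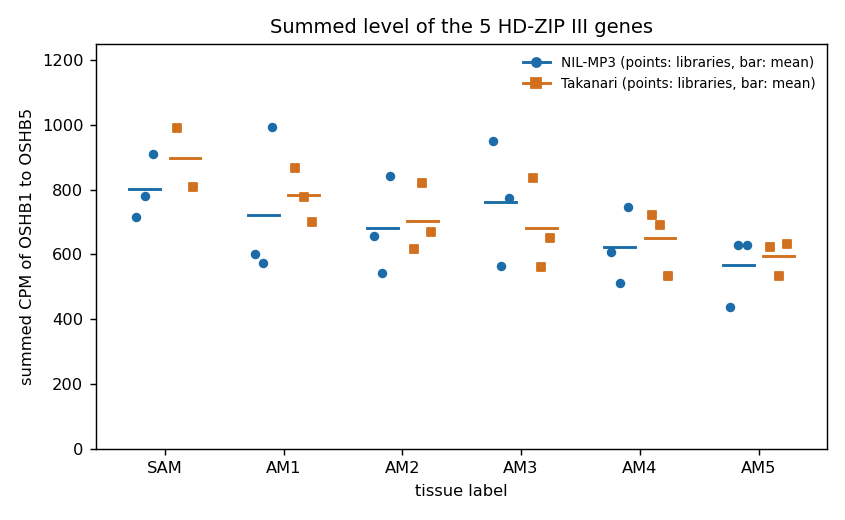
Summed CPM of OSHB1 to OSHB5 (vertical axis) in each library by tissue label (horizontal axis), NIL-MP3 as circles and Takanari as squares, with a bar at each group mean. The 6 AM5 libraries lie at 439.3 to 632.9 CPM, below the 5 SAM libraries at 715.5 to 990.5 CPM.

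In the comparison of AM5 with SAM only OSHB4 passed the threshold. Whether it differed more than the other genes was not tested. Overexpression of OSHB4 is known in rice to narrow and roll leaves. In SAM, OSHB4 stood at 220.7, 351.5 and 419.5 CPM in NIL-MP3 replicates 6, 12 and 18, and at 462.9 and 316.2 CPM in Takanari replicates 6 and 12. In AM5 it ran from 144.1 CPM over a median of 206.9 CPM to 277.8 CPM (n = 6). The groups overlapped through 1 SAM library, NIL-MP3 replicate 6, and 4 of 5 SAM libraries lay above every AM5 library. The means were 354.2 ± 94.0 CPM in SAM and 211.0 ± 55.9 CPM in AM5 (SD). The fitted log2 difference AM5 minus SAM was -0.79 ± 0.26 (SE), or 0.580 of the SAM level (edgeR's quasi-likelihood test, adjusted p = 0.039 over 6943 loci).

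Of the 4 tested genes, OSHB4 alone was called in this comparison, against 10.2% of all tested loci called in either direction and 4.68% called as lower in AM5. The call of OSHB4 was close to the threshold. It was lost in 7 of 35 fits that left out 1 library, with adjusted p-values from 0.0145 to 0.195 over the 35 fits and log2 differences from -0.95 to -0.65. The libraries that ended it were NIL-MP3 AM5 replicates 1 and 13, NIL-MP3 SAM replicates 12 and 18, Takanari AM5 replicates 7 and 13 and Takanari SAM replicate 6. DESeq2 did not call OSHB4 (adjusted p = 0.076), nor did edgeR after all libraries were thinned to the lowest total (log2 difference -0.55, adjusted p = 0.247).

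The other genes had lower mean levels in AM5 than in SAM but did not pass the test. OSHB2 had 106.2 ± 24.6 CPM in SAM (SD, n = 5) and 68.6 ± 22.5 CPM in AM5 (SD, n = 6), a log2 difference of -0.60 ± 0.33 (SE, edgeR adjusted p = 0.279). Its libraries ranged from 75.8 to 137.0 CPM in SAM and from 38.9 to 99.8 CPM in AM5, and 4 of 6 AM5 libraries lay below every SAM library. OSHB1 differed by -0.48 ± 0.28 (SE, edgeR adjusted p = 0.316), from 158.6 ± 48.8 to 117.0 ± 28.5 CPM (SD). OSHB3 differed by -0.16 ± 0.27 (SE, edgeR adjusted p = 0.791), from 218.5 ± 54.9 to 184.7 ± 74.9 CPM (SD). The median of the 4 log2 differences was -0.54, beside -0.0017 over all tested loci, a value that the scaling itself holds near 0. Without regard to sign, the median difference over all tested loci was 0.398. By that size OSHB4 stood at percentile 77.9 of the tested loci, OSHB2 at 67.1, OSHB1 at 57.8 and OSHB3 at 22.6.

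Against SAM, the AM libraries as a whole gave smaller differences than AM5, though that of OSHB1 was nearly the same. The mean of all AM groups minus SAM was -0.47 ± 0.21 for OSHB1 (SE, edgeR adjusted p = 0.302) and -0.44 ± 0.19 for OSHB4 (adjusted p = 0.297). It was -0.18 ± 0.24 for OSHB2 (adjusted p = 0.838) and -0.12 ± 0.21 for OSHB3 (adjusted p = 0.894). Thus 0 of 4 genes passed, beside 1.35% of all tested loci. OSHB1 and OSHB4 were the 2 genes with an unadjusted p under 0.05 (0.0249 and 0.0237), and DESeq2 and limma voom also called 0. The mean of OSHB1 in SAM was 207.2 CPM in Takanari (n = 2) but 126.2 CPM in NIL-MP3 (n = 3). In NIL-MP3 the means of AM1 (128.3 CPM) and AM4 (129.0 CPM) were no lower than that, and the other AM means lay at 97.1 to 123.9 CPM. AM1 against SAM gave 0 of 4 genes as well, beside 0.144% of loci, with 0 at an unadjusted p under 0.05 and 0 called by DESeq2 or limma voom.

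The comparison along AM1 to AM5 asked whether the genes changed steadily with the AM number. OSHB2 had a slope of -0.145 ± 0.069 on the log2 scale per AM number (SE, edgeR adjusted p = 0.141), which amounts to 0.669 of the starting level over 4 steps. Its mean level was highest in AM2 (113.9 ± 10.5 CPM), followed by AM1 (97.5 ± 34.0 CPM), AM3 (93.2 ± 26.2 CPM), AM4 (87.0 ± 18.2 CPM) and AM5 (68.6 ± 22.5 CPM; SD, n = 6). The AM2 libraries of OSHB2 lay between 101.7 and 129.7 CPM, and the AM5 libraries between 38.9 and 99.8 CPM. This pair of tissues was picked after the values were seen and was not tested. How many of all tested loci keep these tissues apart in the same way was not counted.

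OSHB4 had a slope of -0.108 ± 0.056 (SE, edgeR adjusted p = 0.181). Its means in AM2, AM3 and AM4 were 270.1, 275.1 and 273.3 CPM, between 309.6 ± 148 CPM in AM1 and 211.0 ± 55.9 CPM in AM5 (SD, n = 6). The AM1 libraries of OSHB4 ran from 156.5 to 527.4 CPM, a wider range than in any other tissue. The highest value was that of NIL-MP3 AM1 replicate 17, without which the slope was -0.040 (adjusted p = 0.655). OSHB3 had a slope of -0.069 ± 0.058 (SE, adjusted p = 0.451), with its lowest mean in AM4 (161.9 ± 33.2 CPM) and its highest in AM3 (225.2 ± 87.3 CPM). OSHB1 had a slope of -0.00076 ± 0.060 (SE, adjusted p = 0.996), and its AM means lay between 103.1 and 126.7 CPM.

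Without the AM5 libraries the slope of OSHB2 was -0.078 (edgeR adjusted p = 0.641) and that of OSHB4 -0.040 (adjusted p = 0.805). By edgeR's test 0 of 4 genes had a slope past the threshold, beside 19.2% of all tested loci, and OSHB2 was the 1 gene with an unadjusted p under 0.05 (0.0401). DESeq2 and limma voom also called 0. The joint test for any difference among the 6 tissues called 0 of 4 genes, beside 14.8% of loci, with 0 at an unadjusted p under 0.05 in each of the 3 tools. The lowest adjusted p of the joint test was 0.290, for OSHB4. Values that miss the threshold do not show that the levels were equal.

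**Figure D3:**
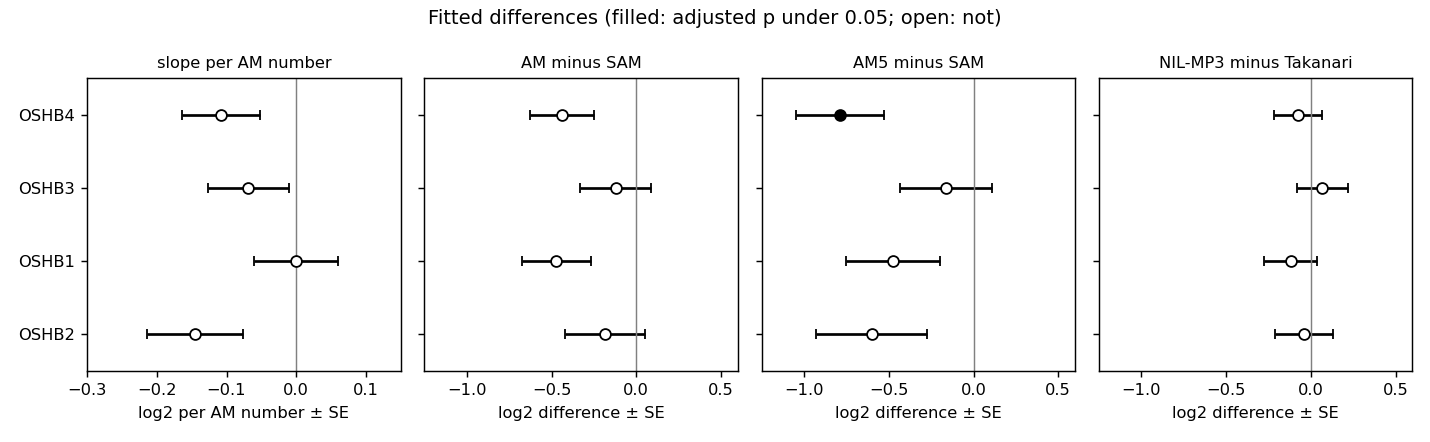
Log2 differences with SE (horizontal axes) for OSHB4, OSHB3, OSHB1 and OSHB2 (vertical axis) in 4 comparisons fitted over all 35 libraries. Filled points passed an adjusted p of 0.05, which is OSHB4 in AM5 minus SAM (-0.79), and the first panel gives slopes per AM number on its own scale.

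Fitted by cultivar, no slope of the genes passed the test. OSHB4 had -0.065 ± 0.078 per AM number in NIL-MP3, or 0.074 without AM1 replicate 17, and -0.151 ± 0.080 in Takanari (SE), and OSHB2 had -0.18 ± 0.10 and -0.11 ± 0.096. For OSHB3 the slopes were -0.065 ± 0.082 and -0.072 ± 0.082. OSHB1 had -0.044 ± 0.088 in NIL-MP3 and 0.043 ± 0.088 in Takanari. In each cultivar edgeR, DESeq2 and limma voom called 0 of 4 slopes, with 0 at an unadjusted p under 0.05, beside 5.07% of loci called by edgeR in NIL-MP3 and 11.4% in Takanari. The difference of the slopes was called for 0 of 4 genes, beside 0.0% of loci, and the interaction of cultivar and tissue likewise for 0 of 4, beside 0.0%. In both tests 0 genes had an unadjusted p under 0.05, and DESeq2 and limma voom called 0.

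None of the 4 genes differed between the cultivars past the threshold. OSHB4 had 272.6 ± 95.2 CPM in NIL-MP3 (SD, n = 18) and 288.2 ± 91.8 CPM in Takanari (SD, n = 17). OSHB1 had 117.6 ± 26.1 and 127.0 ± 43.1 CPM, OSHB3 206.3 ± 71.8 and 196.4 ± 50.4 CPM, and OSHB2 94.5 ± 27.2 and 93.6 ± 26.4 CPM in the same order. The fitted log2 differences NIL-MP3 minus Takanari over the 6 tissues were -0.12 ± 0.16 for OSHB1 (SE, edgeR adjusted p = 0.792), -0.08 ± 0.14 for OSHB4 (0.867), 0.07 ± 0.15 for OSHB3 (0.894) and -0.04 ± 0.17 for OSHB2 (0.955). EdgeR called 0 of 4 genes, beside 1.3% of loci, 0 had an unadjusted p under 0.05, and DESeq2 and limma voom called 0.

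Within single tissues, 0 of 24 pairs of gene and tissue were called by edgeR, DESeq2 or limma voom, beside 0.0% of all such pairs over the tested loci. The log2 differences of the 24 pairs ran from -0.71 to 0.42, 9 of them higher and 15 lower in NIL-MP3. The lowest value was that of OSHB1 in SAM, with 101.1, 137.0 and 140.6 CPM in NIL-MP3 and 188.4 and 226.1 CPM in Takanari. This extreme of 24 pairs had an unadjusted p of 0.0608 in edgeR's test (adjusted p = 0.990). By limma voom 1 of the 24 pairs had an unadjusted p under 0.05, and by edgeR and DESeq2 0 had.

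OSHB4 held the largest share of the family's counts in each of the 6 tissues. Of the 3020 counts of the 5 genes, OSHB4 held 40.0% (95% Clopper-Pearson interval 38.2% to 41.7%), OSHB3 28.9% (27.3% to 30.6%), OSHB1 17.2% (15.8% to 18.5%), OSHB2 13.6% (12.4% to 14.9%) and OSHB5 0.364% (0.182% to 0.651%). In SAM the share of OSHB4 was 42.2% (38.2% to 46.3%) and that of OSHB3 27.3% (23.8% to 31.1%). In AM5 these shares were 35.3% (30.1% to 40.8%) and 33.8% (28.6% to 39.2%), and their intervals overlapped. The intervals also overlapped in AM3, where OSHB4 held 38.0% (33.8% to 42.2%) and OSHB3 31.1% (27.2% to 35.3%), but not in the other 4 tissues. These intervals leave out the spread between libraries, so intervals that stay apart do not show a separation beyond it. In AM1 the shares were 39.75% for OSHB4 and 29.71% for OSHB3, with SDs over libraries of 11.05 and 4.77 percentage points (n = 6). Over the AM5 libraries the SD of the share was 8.44 percentage points for OSHB4 and 9.87 for OSHB3 (n = 6). The shares in SAM and AM5 differed by less than these SDs.

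**Figure D4:**
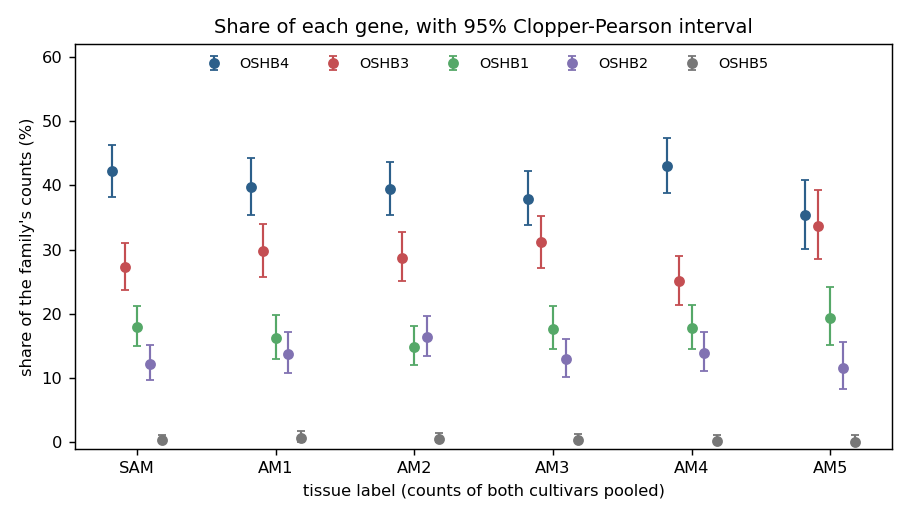
Share of each gene in the summed counts of OSHB1 to OSHB5 (vertical axis, %) by tissue label (horizontal axis), with both cultivars pooled and 95% Clopper-Pearson intervals as bars. OSHB4 holds 35.3% to 43.1% and OSHB3 25.1% to 33.8%, and their intervals overlap in AM3 and AM5.

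The genes differed in how much they varied between libraries of 1 group. OSHB1 and OSHB2 had coefficients of variation of 24.2% and 26.5% within groups, where counting error alone gives 26.8% and 30.1%. Their spread was thus no wider than that of random counting. OSHB3 and OSHB4 varied by 33.4% and 34.4%, where counting error gives 20.8% and 17.5%. EdgeR draws its fitted biological coefficients of variation toward a trend over all tested loci, here 0.239 for OSHB1 and 0.250 for OSHB2. The fitted values thus do not rest on each gene's own counts alone. These values were 0.190 for OSHB1 and 0.184 for OSHB2, at percentiles 7.65 and 5.5 of the tested loci. They were 0.243 for OSHB3 and 0.247 for OSHB4, at percentiles 38.4 and 41.5.

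Part of the spread of OSHB4 went with the library numbers. The numbers fall into 3 ranges per cultivar, 1 to 6, 7 to 12 and 13 to 18, and each range covers the 6 tissues once, except that the last Takanari range lacks SAM. The labels do not say what the ranges stand for. In Takanari the AM libraries numbered 1 to 6 had 351.6 ± 61.7 CPM of OSHB4 (SD, n = 5), those numbered 7 to 12 had 267.3 ± 84.6 and those numbered 13 to 18 had 205.0 ± 25.8. In NIL-MP3 the order of the means was the opposite, with 217.8 ± 67.2, 232.9 ± 39.0 and 332.1 ± 121 CPM. The means of the ranges 1 to 6 and 7 to 12 there differed by less than either SD. The mean of the range 13 to 18 includes AM1 replicate 17 at 527.4 CPM, and that range was highest in 3 of 5 AM tissues. OSHB3 in Takanari had 157.3 ± 37.6, 192.4 ± 53.5 and 240.7 ± 35.2 CPM, against the order of OSHB4 there. OSHB1 in NIL-MP3 was highest in the range 13 to 18 in 5 of 5 AM tissues, at 140.0 ± 26.0 CPM against 111.7 ± 19.8 and 95.9 ± 16.4 CPM. In Takanari that range was highest for OSHB1 in 0 of 5 AM tissues, at 91.5 CPM against 130.8 and 126.6 CPM. OSHB3 in NIL-MP3 had no steady order (213.9, 143.2 and 244.7 CPM). OSHB2 had 106.3, 91.0 and 77.7 CPM in NIL-MP3 but 90.6, 90.4 and 96.1 CPM in Takanari. The ranges were looked at after the values were seen, so these values carry no test.

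**Figure D5:**
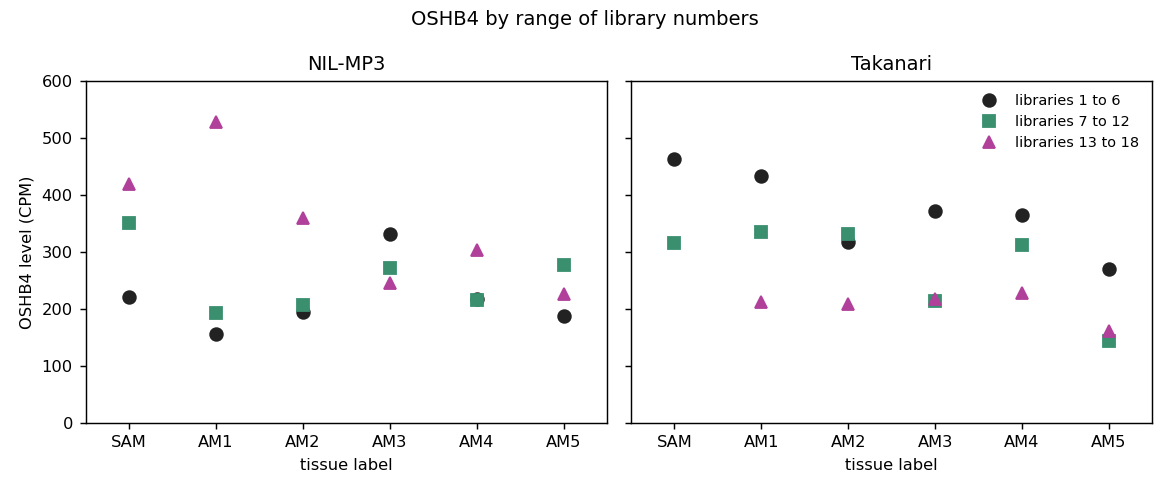
CPM of OSHB4 (vertical axis) by tissue label (horizontal axis) in NIL-MP3 (left) and Takanari (right), with circles, squares and triangles for libraries numbered 1 to 6, 7 to 12 and 13 to 18. In Takanari the triangles (160.6 to 227.1 CPM) lie below the circles (269.7 to 434.1 CPM) in each AM tissue, and Takanari SAM has no library of that range.

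Takanari SAM had no library in the range 13 to 18, in which OSHB4 was lowest in that cultivar, so AM5 was also set against SAM within ranges. OSHB4 was lower in AM5 than in SAM in 5 of 5 ranges that held both, at 0.853, 0.790 and 0.537 of the SAM level in NIL-MP3 and 0.583 and 0.456 in Takanari. In 4 of these 5 ranges the direction was already set, because the SAM library lay above every AM5 library. The range that was free to differ was that of NIL-MP3 replicates 1 to 6, at 0.853. OSHB1, OSHB2 and OSHB3 were lower in 4 of 5 each.

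Across the 35 libraries the genes varied largely apart from each other. Pearson's r of log2 CPM was 0.382 for OSHB1 and OSHB4, and between -0.023 and 0.193 for the other 5 pairs. These points share libraries and depth, and at means of 11.7 to 34.5 counts per library weak correlations are no finding. The tested locus with the highest r to each gene over the 35 libraries was LOC_Os01g55220 for OSHB2 (r = 0.705), LOC_Os01g65440 for OSHB4 (r = 0.699), LOC_Os03g24890 for OSHB3 (r = 0.641) and LOC_Os08g33340 for OSHB1 (r = 0.523). Each of these r values is the largest picked over all tested loci, so it is high in part by selection and carries no test. The files pair none of these identifiers with a name.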

How the data were processed

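The deposited table holds raw UMI counts per locus for 35 CEL-Seq2 libraries, made by the authors from 100 pg of RNA with 11 to 15 PCR cycles, per the labels. Bowtie2 and Subread 2.1 are named with no role or order, per the submitters' processing notes. Which build and annotation they used is not given in the sources used here. Member names came with the gene list, since 0 of 55801 identifiers matched the RefSeq gene table. No sequence was used.

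Loci passing edgeR's filterByExpr (minimum count 10) over 12 groups of cultivar and tissue were fitted with TMM factors (0.8912 to 1.045) and edgeR 4.0.16's robust quasi-likelihood F test in R 4.3.3, 1 mean per group and no covariate. P-values were adjusted over all tested loci (Benjamini-Hochberg, threshold 0.05). The SE is the log2 difference divided by the square root of F. CPM used library sizes of tested loci. A count of 0 allows up to 3 counts. Nothing in the labels ties libraries to separate plants, so p-values measure only the possibly technical spread between the samples. DESeq2 1.42.0, limma 3.58.1 (voom with quality weights), other scalings and filters, thinned counts, replicate blocks and leaving out libraries were alternatives. The fit was tested on simulated data. The genes and comparisons were chosen with earlier results of these data known. Loci named as most alike were those with the highest Pearson's r of log2 CPM (prior count 2) for each tested gene. Planned lists of other polarity and meristem genes were not used, because no identifier could be paired with a name.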

Additional observations from a re-analysis of the deposited data

How the results depend on the processing

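The number of genes called stayed at 0 in each comparison other than AM5 against SAM, under every setting run. In most settings this was 0 of 4 tested genes, and 0 of 5 without a filter. OSHB2 did not pass the stricter filter or the filter of thinned counts, so these 2 settings hold no test of it. For AM5 against SAM it was 1 in the main test and 0 with DESeq2, in thinned counts and without the 2 libraries of lowest total (adjusted p = 0.0584 for OSHB4, a setting chosen after seeing the data), and 0 to 1 when 1 library was left out. OSHB4 kept a lower level in AM5 in 46 of 46 settings, from -0.95 to -0.55, and was past the threshold in 36.

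Directions changed only for values that no setting called. The slope of OSHB1 over AM1 to AM5 was -0.00076 in the main test, 0.0028 with RLE factors, 0.017 with the stricter filter, 0.0029 with DESeq2, 0.0041 with upper quartile factors, 0.0093 with limma voom, 0.00053 with a replicate block of 3 levels, 0.0060 without the AM5 libraries, 0.051 in thinned counts and -0.022 to 0.017 without 1 library. Without the AM5 libraries its slopes were 0.033 in NIL-MP3 and -0.021 in Takanari, where leaving out 1 library gave -0.0029 to 0.083. OSHB2 between the cultivars was 0.052 without AM5 and -0.091 to 0.017 without 1 library. OSHB3 in AM5 against SAM was 0.0078 in thinned counts and 0.029 without the 2 libraries of lowest total. OSHB3 between the cultivars was -0.014 with limma voom and -0.00082 to 0.148 without 1 library, and in AM against SAM it was -0.207 to 0.0045 without 1 library. The slope of OSHB4 in NIL-MP3 was 0.0055 with limma voom and -0.131 to 0.074 without 1 library. The causes were not tested.

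Shared numbers did not pair libraries across the cultivars, with correlated deviations over 0.1 in 2 of 17 pairs (median r 0.0015). Libraries of 1 range within a cultivar deviated together more often, in 57 of 85 pairs (median 0.144) against 0 of 170 pairs from other ranges (median -0.069). Deviations from a group mean sum to 0 within the group. Low values across ranges thus follow in part from high ones within ranges, and the contrast was not tested. A replicate block of 3 or 6 levels changed no call (OSHB4 in AM5 against SAM, -0.80 and -0.69, edgeR adjusted p = 0.0353 and 0.0155). At 3 to 83 counts per library for the tested genes, counting error limits what can be seen.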
